A study of Arabidopsis thaliana with 4 samples.

Results

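After 2 h of feeding by western flower thrips, the earliest time of the series, transcripts of Arabidopsis thaliana plants were measured on 1 two-colour cDNA array. The array was chosen by its label for 2 h, and it is 1 of 4 arrays, the others having been run after 5, 10 and 24 h. The fed plants were Columbia-0 plants 21 days old, each enclosed in a chamber with 25 adult female thrips (Frankliniella occidentalis) that had gone without food for 3 h, and their cDNA carried the red dye Cy5. The untreated plants were Columbia-0 of the same age, and their cDNA carried the green dye Cy3. Both sets grew in soil at 22 °C with 16 h of light and 8 h of darkness, and the labels name the material both as leaves and as whole plants without roots. Per the labels, a sample was made of 30 to 70 plants, the RNA came from material pooled over 3 to 4 experiments, and this RNA was hybridised to 2 to 3 arrays, of which 1 a time is used here. With pooled plants, 1 array a time and no dye swap, a difference between the dyes and a difference between the plants cannot be told apart, and no difference below has a replicate check or a test.

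Thrips pierce single cells, mostly of the epidermis and the tissue under it, and suck them empty. In Arabidopsis, wounding and cell-feeding insects set off the synthesis of jasmonate from chloroplast lipids. Its isoleucine conjugate releases the MYC transcription factors from their JAZ repressors, and genes for lectins, lipases, methyltransferases and defence proteins follow, together with enzymes that break jasmonate down again. In such bulk material, fewer cells of a type and less RNA per cell cannot be told apart.

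Of 1182 cDNA clones on the array, 718 (60.7%) gave a usable ratio at 2 h, from 1388 of 2366 clone spots. A spot was usable when the scanner software had given it the flag 3. The other 978 clone spots carried the flags 1 (341 spots) and 4 (637 spots) and were dim in both dyes. Their median foreground was 196 in fed and 132 in untreated plants for flag 1, and 308 in fed and 258 in untreated plants for flag 4. Usable clone spots had a median foreground of 1372 in fed plants over a background of 181, and of 1097 in untreated plants over a background of 107. The 26 negative control spots reached at most 292 in the fed and 225 in the untreated channel. Of the usable clones, 667 had 2 usable spots, 50 had 1 and 1 had 4, and their spots differed little, with a median SD of 0.10 log2 within a clone. Such an SD covers spotting and scanning only.

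**Figure D1:**
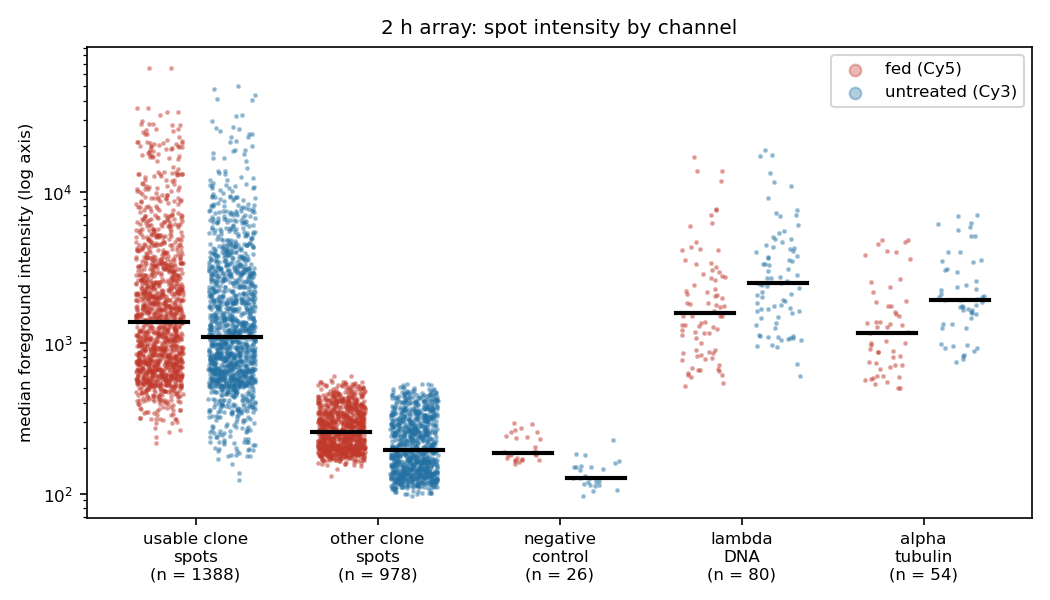
Foreground intensity of each spot on the 2 h array (log axis), with fed plants (Cy5) left of untreated plants (Cy3) in each kind of spot, and black lines at the medians. Usable clone spots had medians of 1372 in fed and 1097 in untreated plants, while the negative control spots stayed at or below 292 and 225.

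The array held 464 clones without a usable spot at 2 h, and 193 of them have a gene name. Neither channel was above background in 247 of these clones, both were in 131, fed plants alone in 55 and untreated plants alone in 31. A channel was called above background where the foreground median exceeded the background median by more than 2 background SD in at least 50% of the spots. At 5, 10 and 24 h, 162, 72 and 91 of the 464 clones were usable. The 718 clones are thus the brighter ones, and transcripts scarce in both fed and untreated plants are not described by them.

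Feeding for 2 h went with higher levels of 140 clones (19.5%) and lower levels of 90 clones (12.5%), together 230 clones or 32.0% of those usable, and 488 clones stood closer to the middle of the array. A clone was counted when its log2 ratio of fed over untreated was at least 1 in size, all its usable spots had 1 direction, and its brighter channel was above background. Ratios were set by loess, so each is relative to the middle of the usable clones at its brightness. The upper side reached further than the lower one. The highest clone stood at 4.07 log2, or 16.8-fold, and the lowest at -2.52, or 5.74-fold lower. At least 3-fold differences were found in 77 clones upward and 28 downward, at least 4-fold in 43 and 11, and at least 8-fold in 12 and 0. At 1.5-fold the counts were 202 and 208. The median log2 ratio was 1.70 among the clones called higher and -1.34 among those called lower, against -0.12 over all 718.

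At the 2-fold limit the counts divide a continuous range. The 5 clones just called higher had ratios of 1.01 to 1.04, and the 5 just under the limit had 0.979 to 0.995. On the lower side, the 5 just called stood at -1.04 to -1.002 and the 5 just short of it at -0.995 to -0.979. ZW9, at 0.99 ± 0.03 (SD, 2 spots), and the mitochondrial NADH dehydrogenase gene NDB2, at 0.98 ± 0.13, were among those just under the limit. Calls that rested on 1 usable spot numbered 3 higher and 9 lower.

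**Figure D2:**
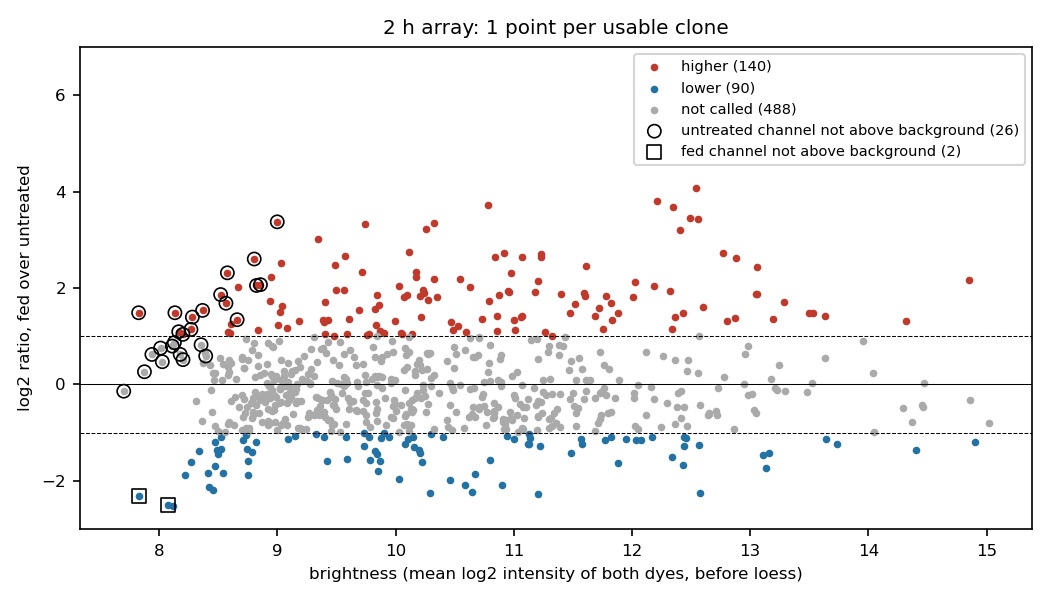
Log2 ratio of fed over untreated plants against brightness for each of the 718 usable clones, with dashed lines at the 2-fold limits. The 140 clones called higher reach 4.07 and the 90 called lower reach -2.52; the circled clones, dim in untreated plants, lie at the left edge and nearly all above 0.

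The channel near background was mostly that of the untreated plants. Its background SD had a median of 84.2, against 60.0 in the fed channel. The rule thus asked for more signal over background in the untreated channel. Both channels were above background in 690 clones (96.1%), the fed channel was not in 2, and the untreated channel was not in 26. Of the 26 clones that were dim in untreated plants, 25 had a ratio above 0 and 15 were called higher, with a median log2 ratio of 1.12. They made up 10.7% of the clones called higher and 1.90% of the other clones. Of the usable clones 0 had neither channel above background, so those dim in untreated plants were all above background in fed plants. Their ratios above 0 and these shares thus largely follow from that selection and are no result about feeding. A ratio against a channel not above background gives only a bound, taken against the higher of the clone's own signal there and the lowest signal among clones above background. For the 15 clones called higher the bounds ran from at least 1.72-fold to at least 8.19-fold higher. The bounds hold for the mean over spots with loess, and cover neither the spread between spots nor other ways of processing. They are also no strict lower limits. The lowest signal of an untreated channel above background was 7.83 log2, while the untreated channel of dim clones reached 8.24. "At least" before a fold difference of a dim clone means such a bound throughout. At the later times, more clones were dim in a channel, with 17, 37 and 7 in fed and 46, 74 and 40 in untreated plants at 5, 10 and 24 h.

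Of the 26 clones, 9 have gene names, and some of these are named here after their values were seen. AT1G66090, which encodes a TIR-NBS protein of the disease-resistance type, was at least 4.20-fold higher, with foregrounds of 1085 and 1021 in fed plants and 292 and 279 in untreated plants. This bound is the same as its ratio of 2.07 log2, because its own untreated signal of 8.00 log2 was the one used. AR781 was at least 3.47-fold higher, with 882 and 886 in fed plants and 209 and 221 in untreated plants. CCR2, a cinnamoyl-CoA reductase of the phenylpropanoid pathway, was at least 1.99-fold higher from 1 spot, and AT2G38240, which encodes a jasmonate-hydroxylating oxygenase, at least 1.72-fold. In these 4 genes every fed value lay above every untreated one, but the bounds of CCR2 and AT2G38240 do not reach 2-fold. The other 5, STZ, AT1G69890, AT4G39670, XTH19 and AT1G32920, were not called. DRT100, a leucine-rich repeat protein, was the named gene dim in fed plants, and its mean with loess was at least 5.44-fold lower. Its 2 spots stood at -2.86 and -2.13 log2. Its mean was -1.50 with median centring, and -0.85 and -0.66, not called, with the zero on lambda DNA and on tubulin.

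The zero of these ratios lies near the middle clone of an array selected for stress genes. The 80 spots of bacteriophage lambda DNA had a median log2 ratio of -0.68 before normalization and the 54 alpha tubulin spots one of -0.87, so that the median clone lay 0.65 above lambda DNA and 0.84 above tubulin. With the zero on lambda DNA, 272 clones were at least 2-fold higher and 13 at least 2-fold lower, and with the zero on tubulin 316 and 6. Of all calls, 60.9% were on the higher side with loess, 95.4% with lambda DNA, 98.1% with tubulin, 89.1% in the authors' deposited value table and 71.7% with median centring. The sources used here do not say how lambda DNA was added. Below, "lower" means lower than the middle of the array, and of the 12 lowest named genes 4 were still called lower against lambda DNA and 1 against tubulin.

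**Figure D3:**
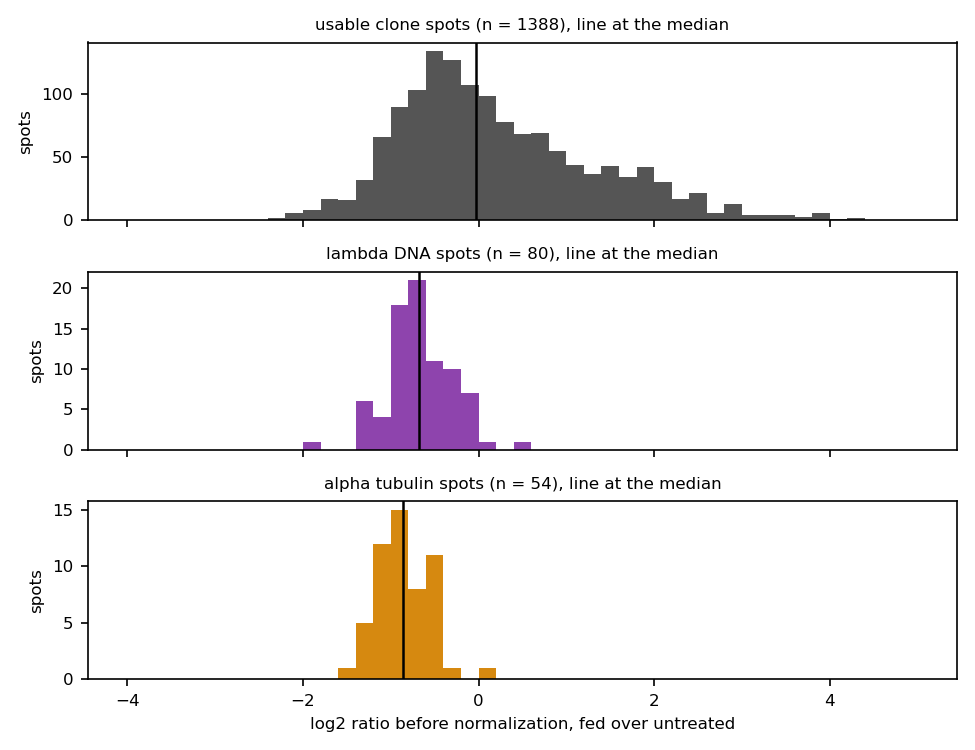
Log2 ratios of fed over untreated plants before normalization, as numbers of usable spots for clones, lambda DNA and alpha tubulin. The lambda DNA spots have their median at -0.68 and the tubulin spots at -0.87, and the clone spots spread further on the upper side.

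Among the 222 usable clones with a gene name, 40 (18.0%) were called higher and 23 (10.4%) lower, shares close to those of all 718 clones. Of the 20 highest clones 15 have no gene name here, and of the 20 lowest 14 have none. The named genes therefore show only some of the early changes. Gene groups below are lists of loci, and only members with a gene name on the array could be found. The lists were chosen with earlier results of these data known. Their counts and medians beside those of all clones thus describe the members only and support no claim about a pathway.

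The few usable genes of jasmonate synthesis and breakdown were called higher, 1 of them only under some settings. Of 22 listed genes 4 are named on the array, 3 were usable, and 3 were called higher, where 19.5% of all usable clones were, with a median log2 ratio of 1.86 against -0.12 for all clones. AT5G05600 encodes an oxygenase that hydroxylates jasmonate and so inactivates it. Its foreground was 6972 and 6476 in fed plants, against 564 and 468 in untreated plants, and its normalized log2 ratio was 3.72 ± 0.08 (SD, 2 spots), or 13.2-fold. OPCL1, a CoA ligase of the peroxisomal steps of jasmonate synthesis, had 2584 and 2041 in fed and 534 and 644 in untreated plants, a ratio of 1.86 ± 0.45. AT2G38240, a relative of AT5G05600 with the same activity, had 780 and 635 in fed plants and 123 and 137, near the background, in untreated plants. Its ratio was 1.49 ± 0.48 with loess, a bound of only 1.72-fold, and it was 2.86 with median centring and 0.54, no longer called, with loess fitted within each print block, the groups in which spots are laid out on the slide. JMT, the methyltransferase that makes methyl jasmonate, had no usable spot: its spots read 389 and 346 in fed plants, above background, and 181 and 187 in untreated plants, not above it.

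Genes listed as responding to jasmonate or wounding held 4 of the 6 highest named positions. The list was chosen with earlier results of these data known, so these positions support no claim about a pathway. Of 25 listed, 7 are named on the array, 6 were usable and 5 were called higher, with a list median of 2.87, against 19.5% called higher and a median of -0.12 over all usable clones. FAMT, a methyltransferase of the family that also holds JMT, was the highest clone of all, with foregrounds of 25926 and 27530 in fed plants, against 1372 and 1458 in untreated plants, and a log2 ratio of 4.07 ± 0.02 (SD, 2 spots). AT3G28220, whose protein carries TRAF-like domains, had 20293 and 19650 in fed and 1405 and 1431 in untreated plants, a ratio of 3.68 ± 0.04, or 12.8-fold. AT1G52000, a jacalin-type lectin gene, had 17575 and 18079 in fed and 1750 and 1686 in untreated plants, a ratio of 3.21 ± 0.07, or 9.24-fold. In these 3 genes the transcript was already well above background without thrips, and no fed spot came near an untreated one. AT2G34930, a leucine-rich repeat gene, was dimmer, with 1259 and 1371 in fed and 258 and 278 in untreated plants, and stood at 2.52 ± 0.01. AT1G54010, which encodes a GDSL lipase-like protein, stood at 1.82 ± 0.20.

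THI2.1, a thionin gene induced by jasmonate, went the other way without reaching the limit. It had 389 and 433 in fed plants and 568 and 673 in untreated plants, a log2 ratio of -0.90 ± 0.06 (SD, 2 spots), which was 0.03 with the zero on tubulin and -1.04, called lower, with loess by print block. At 5 and 10 h it stood at -0.02 and -0.54, and at 24 h at 2.55. PDF1.2, a defensin gene that responds to jasmonate together with ethylene, had no usable spot, with 229 and 236 in fed plants, neither above background, and 439 and 141 in untreated plants. Not all jasmonate-responsive genes on the array were thus higher at 2 h.

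Lectin and ER body genes were divided. ER bodies are compartments of the endoplasmic reticulum that store beta-glucosidases in Arabidopsis and its relatives, and jacalin-type lectins bind to these enzymes. Of 14 listed genes 7 are named on the array, 5 were usable, 3 were called higher and 2 were not called, with a median of 1.21; over all usable clones 19.5% were called higher and 12.5% lower, and the median was -0.12. JAL34, a lectin, had 906 and 2796 in fed plants and 305 and 534 in untreated plants; its spots differed in brightness but both ratios were high, with a mean of 1.96 ± 0.45 (SD, 2 spots). NAI2, which is needed to form ER bodies, had 2698 and 2358 in fed and 974 and 981 in untreated plants, a ratio of 1.21 ± 0.16 that was 0.92, and not called, with loess by print block. AT1G52000, given above, is also on this list.

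The beta-glucosidases stored in these bodies were not higher at 2 h. PYK10, the main one in roots and seedlings, had 3454 and 3692 in fed plants and 3945 and 4161 in untreated plants, a log2 ratio of -0.27 ± 0.01 (SD, 2 spots). BGLU22 had 450 in fed and 416 in untreated plants on its 1 usable spot, a ratio of -0.58. Both stood above 0 when the zero was set on lambda DNA, at 0.46 and 0.51. PYK10 stood at 0.42, 1.50 and 2.86 at 5, 10 and 24 h and BGLU22 at 0.41, 1.55 and 1.82, whereas NAI2 was at 2.32, 2.26 and 1.97. BGLU21 and JAL33, close relatives of BGLU22 and JAL34 whose cDNAs may share signal with them, had no usable spot.

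PYK10 was also the root marker on the array, where 1 of 4 listed root markers is named, although the labels describe material without roots. Its spots read 3454 and 3692 in fed and 3945 and 4161 in untreated plants. The medians over usable clone spots were lower, at 1372 and 1097. Its ratio, which was not called, does not tell whether roots were in the material, and this was not tested. None of the 6 leaf markers and none of the 2 markers of epidermis or guard cells is among the named clones, so the labelled tissue could not be checked against its markers at 2 h.

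Among genes of abscisic acid, drought and cold, KIN2 and COR15A were called higher and COR47 was not called. Of 16 listed genes 5 are named, 3 were usable and 2 were called higher, against 19.5% of all usable clones, with a median of 1.07 against -0.12. KIN2, which encodes a small hydrophilic protein induced by cold and abscisic acid, had 858 and 1163 in fed plants and 319 and 322 in untreated plants, a log2 ratio of 1.74 ± 0.39 (SD, 2 spots). COR15A, whose product protects chloroplast membranes in the cold, had 723 in fed and 309 in untreated plants on 1 usable spot, a ratio of 1.07 that was 0.98, and not called, with loess by print block. The dehydrin COR47 had 1217 and 1193 in fed and 1089 and 1143 in untreated plants, and its ratio of -0.12 ± 0.06 was that of the median clone. KIN1 and COR15B, close relatives of KIN2 and COR15A, had no usable spot.

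Sugar-starvation and darkness genes held 3 called higher and 1 called lower, of 4 usable and 13 listed, with a median of 1.42. Over all usable clones, 19.5% were called higher and 12.5% lower, and the median was -0.12. AT3G15450, a gene of starved and dormant tissue, had 4462 and 5251 in fed plants and 786 and 733 in untreated plants, a log2 ratio of 2.65 ± 0.26 (SD, 2 spots), or 6.27-fold. AT4G36850, which encodes a PQ-loop membrane protein, had 5097 and 4823 in fed and 1765 and 1720 in untreated plants, a ratio of 1.48 ± 0.03. MCCA and MCCB encode the subunits of methylcrotonyl-CoA carboxylase, the mitochondrial enzyme of leucine breakdown, and they were called in opposite directions, MCCB only under some settings. MCCA had 3105 and 2872 in fed plants and 1069 and 1075 in untreated plants, a ratio of 1.36 ± 0.11. MCCB had 360 in fed and 575 in untreated plants, a ratio of -1.34 that rested on 1 spot. Its call held in 10 of 15 ways of processing, the main one included. The ratio of MCCB was -0.71 with loess by print block, -0.37 with the zero on lambda DNA, -0.18 on tubulin and -0.86 in the authors' deposited table.

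Other listed pathways had few members on the array. STZ, a zinc-finger repressor induced early by wounding and calcium, had 597 and 571 in fed plants and 221 and 178, not above background, in untreated plants. It was at least 1.73-fold higher, with a log2 ratio of 0.80 ± 0.02 (SD, 2 spots) that was not called with loess but was 1.72 with median centring. WRKY53, a transcription factor of senescence and defence, had no usable spot, with 439 and 409 in fed and 287 and 251 in untreated plants. AER, an alkenal reductase, and ALDH7B4, an aldehyde dehydrogenase, both of which remove reactive carbonyls, stood at 0.12 ± 0.33 and 0.63 ± 0.04 and were not called. The ethylene transcription factor EIN3 stood at -0.21 ± 0.17. CCR2 was the 1 usable gene of 15 listed for phenylpropanoids. No gene listed for salicylate, the clock, photosynthesis, oxidative stress or heat shock is named on the array, so nothing can be said of them.

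Several of the highest named genes belong to no list. AT1G66760, which encodes a MATE-type efflux transporter, had 1864 and 1774 in fed plants and 383 and 325 in untreated plants, a log2 ratio of 2.49 ± 0.16 (SD, 2 spots). AT5G64120, a cell-wall peroxidase gene, stood at 2.18 ± 0.30, with 4406 and 2788 in fed and 821 and 660 in untreated plants. AT4G20840, a gene of the berberine-bridge-enzyme family whose members oxidize sugars, was bright, with 11783 and 8593 in fed and 2586 and 1938 in untreated plants, and stood at 2.05 ± 0.08. All 3 genes had fed spots far above their untreated ones, at different brightness. AT2G18690, whose role is not given here, stood at 2.12 ± 0.06, and AT1G73480, which encodes an alpha/beta hydrolase, at 2.03 ± 0.03. AT5G54170, which encodes a protein of the START lipid-binding type, stood at 1.96 ± 0.32, with spots of 1.74 and 2.19. AT2G24600, which encodes an ankyrin-repeat protein, stood at 1.91 ± 0.03, with 4084 and 4102 in fed and 1049 and 1090 in untreated plants. Of the 15 highest named genes, 14 kept their call in all 15 ways of processing, and AT1G66090 lost it only where both channels had to be above background. The 15 ways include the main one and leave out the 3-fold limit. Dropping the filter on dim clones cannot remove a call. With the zero on lambda DNA or tubulin and in the deposited table, all 140 higher calls were kept, so these ways show little about single high genes.

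**Figure D4:**
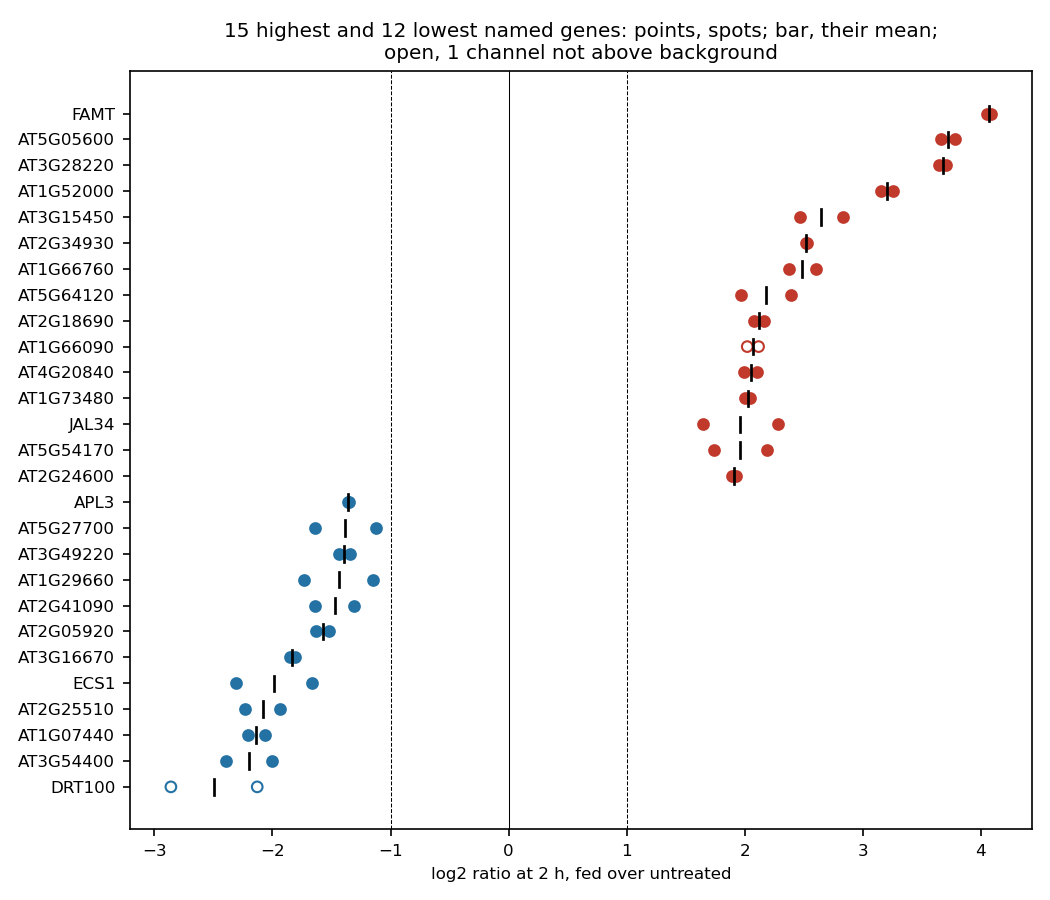
Log2 ratio of fed over untreated plants at 2 h for the 15 highest and the 12 lowest called genes with a name, with 1 point a spot and a bar at the mean; open points have 1 channel not above background. FAMT stands at 4.07 and DRT100 at -2.49, and both spots of every gene lie on the same side of 0.

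The lowest named gene was DRT100, and none of the 12 lowest belongs to a list. DRT100 had 215 and 271 in fed plants, not above background, and 445 and 567 in untreated plants. Its log2 ratio was -2.49 ± 0.52 (SD, 2 spots) with loess and -1.50 with median centring. AT3G54400, an aspartyl protease gene, had 292 and 262 in fed and 712 and 681 in untreated plants, a ratio of -2.20 ± 0.28. AT1G07440, which encodes a tropinone reductase-like protein, had 310 and 294 in fed and 721 and 617 in untreated plants, a ratio of -2.14 ± 0.10. These 3 genes had low foregrounds even in untreated plants, though they were above background there.

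Brighter genes were also lower. AT2G25510 had 895 and 893 in fed plants and 2758 and 3359 in untreated plants, a log2 ratio of -2.08 ± 0.21 (SD, 2 spots), which was -1.05, still called, with the zero on tubulin but -0.84, not called, with loess by print block. ECS1 had 930 and 806 in fed and 2345 and 3085 in untreated plants, a ratio of -1.99 ± 0.46 that was -0.79, and not called, with loess by print block. AT2G05920, a subtilase gene, had 1216 and 1152 in fed and 3030 and 3027 in untreated plants, a ratio of -1.57 ± 0.08. AT2G41090, which encodes a calmodulin-like protein, was the brightest, with 7169 and 5064 in fed and 14327 and 12569 in untreated plants, and stood at -1.47 ± 0.23. In all 4 genes each untreated spot was above each fed spot before any normalization, but the controls lay the same way. Lambda DNA spots had medians of 1568 in fed and 2482.5 in untreated plants, and tubulin spots 1165.5 and 1915. With the zero on tubulin, ECS1 stood at -0.94, AT2G05920 at -0.61 and AT2G41090 at -0.32, none of them called. With the zero on lambda DNA, ECS1 kept its call at -1.13, while AT2G05920 and AT2G41090, at -0.80 and -0.51, did not.

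Among the smaller decreases, AT3G16670, which encodes a protein of the pollen Ole e type, stood at -1.83 ± 0.03 (SD, 2 spots). The GDSL lipase gene AT1G29660 stood at -1.44 ± 0.41 and the pectin methylesterase gene AT3G49220 at -1.39 ± 0.07, or -0.76, not called, with loess by print block. APL3, a large subunit of the enzyme that makes ADP-glucose for starch, had 904 and 959 in fed and 1779 and 1886 in untreated plants, a ratio of -1.36 ± 0.01. AT5G27700, which encodes a protein of the small ribosomal subunit, stood at -1.38 ± 0.37 with loess, at -0.36 with loess by print block and at 0.05 with the zero on tubulin. The calls of the 12 lowest genes held in 9 to 14 of the 15 ways of processing, the main one included.

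The later arrays give the same genes after longer feeding. Each time is 1 array, and the sources used here do not say whether untreated RNA was shared between them, so the values are set side by side only. At 2, 5, 10 and 24 h the log2 ratio of AT5G05600 was 3.72, 4.58, 4.83 and 4.71, and that of AT1G52000 was 3.21, 3.86, 3.52 and 4.04. FAMT stood at 4.07, 4.51, 2.87 and 3.22; at 10 h its untreated channel was not above background, and its increase was at least 5.80-fold. AT3G28220 stood at 3.68, 4.46, 4.07 and 5.41. At 10 h its untreated channel was not above background, and its increase was at least 15.0-fold. These genes were already called higher at 2 h, but AT5G05600, AT1G52000 and AT3G28220 stood higher still at each later time, and FAMT at 5 h.

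Other genes were highest at 2 h or at 2 and 5 h. AT1G66760 stood at 2.49, 2.53, 0.68 and 0.28, with an untreated channel not above background and a single spot at 24 h. AT2G24600 stood at 1.91, 1.098, 0.79 and 0.06, and MCCA at 1.36, 0.25, 0.63 and 0.05. AT3G15450 stood at 2.65, 1.59, 1.32 and 1.37. Further genes with this course, chosen after their values were seen, were AT5G19120, an aspartyl protease-like gene at 1.65, 0.37 and 0.04 at 2, 5 and 10 h, and AT2G32240 at 1.49, 0.08, -0.25 and -0.30. AT4G27280, a calcium-binding EF-hand protein gene chosen in the same way, stood at 1.63, 0.74 and 0.69 at 2, 5 and 10 h. Its 10 h value rested on 1 spot with an untreated channel not above background. Single arrays cannot show whether such courses exceed the spread between experiments.

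Still other genes stood higher later than at 2 h. AT1G54010 stood at 1.82, 3.09, 4.31 and 3.48, JAL34 at 1.96, 2.91, 3.46 and 1.94, and COR15A at 1.07, 1.34 and 3.05 at 2, 5 and 10 h. KIN2 stood at 1.74, 1.77, 3.47 and 0.48, and its increase at 10 h, when untreated plants were not above background, was at least 9.31-fold. ALDH7B4 stood at 0.63, 1.46, 2.01 and 1.96, and AER at 0.12, 0.95, 0.95 and 1.41. Among the genes lower at 2 h, AT1G29660 stood at -1.44, -2.26, -4.65 and -2.11, and it was at least 15.2-fold lower at 10 h because fed plants were then not above background. AT2G25510 stood at -2.08, -1.80, -0.51 and -0.43, and ECS1 at -1.99, -1.28, -0.68 and -0.63, so with loess over the whole array their lowest ratio was at 2 h. With loess by print block their 2 h ratios were -0.84 and -0.79, not called. No such fit is given here for the later times, so whether 2 h was their lowest time stays undecided.

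**Figure D5:**
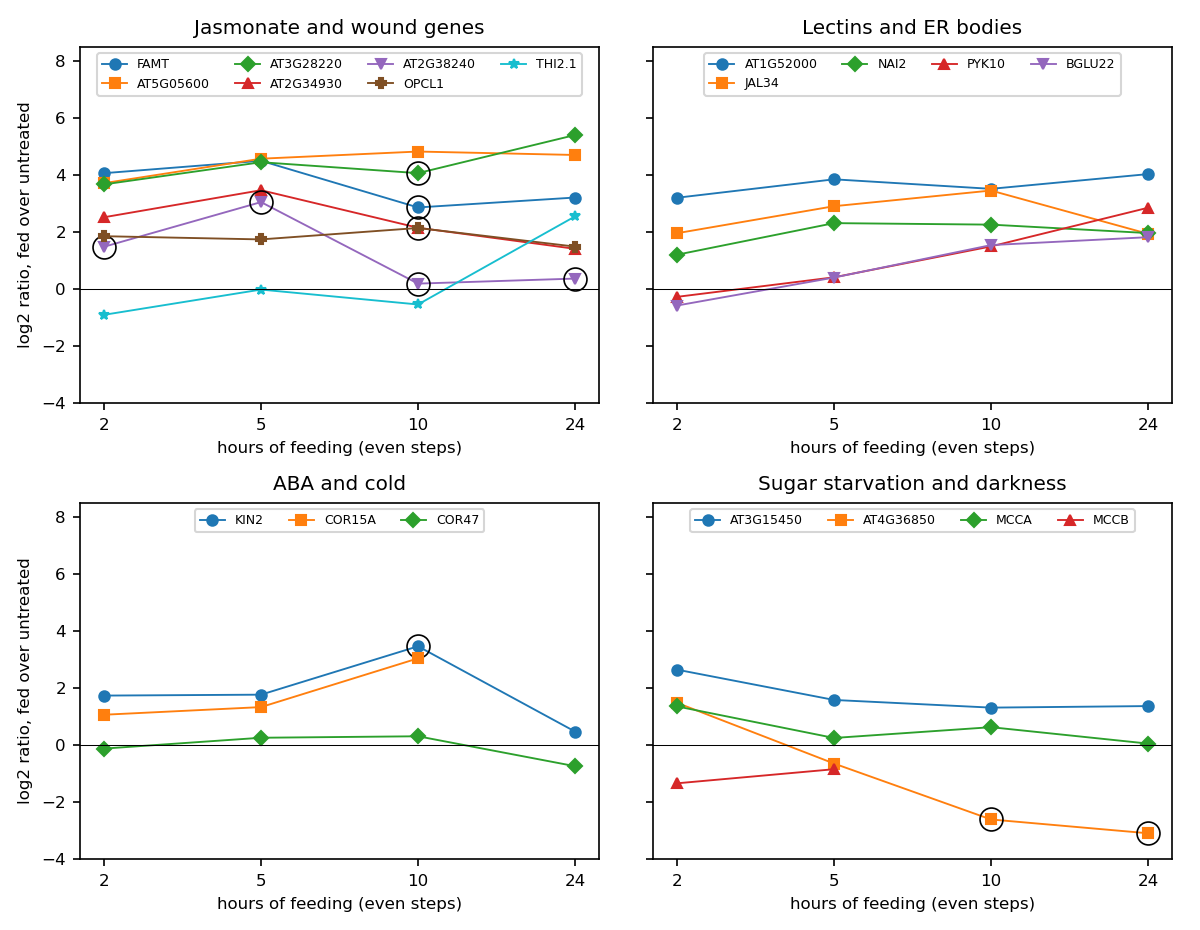
Log2 ratio of fed over untreated plants for usable members of 4 gene lists at 2, 5, 10 and 24 h, drawn at even steps, with 1 array a time and a circle where 1 or both channels were not above background. AT5G05600 is at 3.72 at 2 h and stays between 4.58 and 4.83, PYK10 goes through -0.27, 0.42, 1.50 and 2.86, and AT4G36850 through 1.48, -0.65, -2.61 and -3.09.

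The position of a clone on the slide went with its ratio. The 12 print blocks had medians from -0.64 to 0.14 log2. In the block with the lowest median, 5 of 56 clones were called higher and 15 lower. With loess fitted within each block, 123 clones were called higher and 74 lower, and 110 of the 140 and 53 of the 90 calls given above were kept. Of the 15 highest named genes 0 lost their call in that fit, and of the 12 lowest 4 did, AT2G25510, ECS1, AT3G49220 and AT5G27700. The part of the blocks in the ratios was not tested.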

How the data were processed

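Measured were 4 two-colour cDNA arrays, 1 each at 2, 5, 10 and 24 h. Per the labels, a ScanArray Lite scanned the slides, and ScanArray Express gave each spot its median over pixels. The deposited files hold foreground and background intensity per spot on a linear scale. Per the file headers, channel 1 is Cy3 and channel 2 is Cy5, and the detector gain at 2 h was 58 for Cy5 and 69 for Cy3. The sources used here state neither the scale nor the centring nor the direction of the authors' deposited value table. Against natural logs of background-subtracted fed-over-untreated ratios before normalization, its 2 h column had a slope of 0.988 and r = 0.998 over 718 clones. The deposited values were thus taken as natural log ratios of fed over untreated. The column median was 0.301, and the lambda DNA entries of the column lay below it, at -0.143 to 0.0562. How the authors centred the column was not tested. It served as an alternative only.

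Clone spots with flag 3 were corrected with normexp (offset 50) and normalized by global loess (span 0.3, 4 iterations) in limma 3.58.1 under R 4.3.3, and a clone's usable spots were averaged. Normexp was fitted over all spots of the array, control spots included, and usable clone spots alone set the loess curve. Bounds were set per channel after loess and Aquantile over all spots of the 4 arrays, and are open to dye bias without a swap. 1 array a time limits the precision.

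The platform's gene list names 1 symbol for 416 of 1196 probes, several for 0 and none for 780; 415 matched the TAIR10.1 annotation by identifier. Symbols can be old, and cDNA probes can share signal between relatives. Named were the 15 highest and 12 lowest called genes, measured members of 14 lists of loci, genes called in opposite directions at 2 h and later, and genes beside the limit. The members and lists were chosen with earlier results of these data known. Lists by words of gene descriptions were not used, because the annotation here has no descriptions, and promoter motifs were not analysed here. Alternatives were background correction, normalization, zero point, pixel summary, flags, filters, single spots, the value table and a 3-fold limit.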

Additional observations from a re-analysis of the deposited data

Results flagged for a closer look

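Of the clones called at 2 h, 4 were called in the opposite direction at a later time, 2 of them with a gene name; the differences between times were not tested, and each time is 1 array. AT4G36850 stood at 1.48 log2 at 2 h, -0.65 at 5 h, -2.61 at 10 h and -3.09 at 24 h. The decrease was at least 6.10-fold at 10 h and at least 5.52-fold at 24 h, times at which fed plants were not above background. AT2G37130, a peroxidase gene, stood at -1.09 at 2 h, from 1 spot with 363 in fed and 522 in untreated plants, and at 0.85, 0.67 and 1.14 at 5, 10 and 24 h. The 2 h value was 0.07 with the zero on tubulin. The unnamed clone RAFL04-16-I15 stood at -1.56 at 2 h and 1.08 at 24 h, and the unnamed clone RAFL05-03-P08 at -1.14 at 2 h and 1.11 at 10 h; the spots of RAFL05-03-P08 had an SD of 0.47 at 2 h.

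Outside the clones, 18 spots carry names of known stress and hormone genes, and those of 3 names were usable at 2 h, while 0 of 26 negative control spots and 0 of 10 spots named by a bare number were. RD29A, a drought and cold marker, had 606 and 592 in fed and 485 and 482 in untreated plants, a log2 ratio of 0.21 against 1.51, 1.77 and 0.12 at 5, 10 and 24 h. The ethylene receptor ETR1 had 977 and 886 in fed and 882 and 903 in untreated plants, a ratio of -0.10. ERD8 had 896 and 936 in fed and 1119 and 1021 in untreated plants, a ratio of -0.44. None of the 3 reached the 2-fold limit at 2 h.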

How the results depend on the processing

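No paired analysis was possible because no time had a second array and no result comes from a test. The counts of 140 clones higher and 90 lower became 272 and 13 with the zero on lambda DNA, 316 and 6 with the zero on tubulin, 77 and 28 at a 3-fold limit, and 245 and 30 in the authors' deposited table; under the other alternatives they stayed within 1.5 times, from 123 to 182 higher and from 65 to 111 lower. Both controls lie below the median clone, so using them as the zero adds to every ratio, and all 140 clones called higher kept the call. In the deposited table the lambda DNA entries at 2 h ran from -0.143 to 0.0562, taken as natural logs, below the column median of 0.301. The cause of the difference in the deposited table was not tested. Of the calls, 72.8% were higher with all flags kept, against 60.9%. The 26 clones dim in untreated plants became 45 at 3 background SD, 4 at 1 background SD and 327 of 1182 with all flags kept. Over 46 named genes and 12 settings, 239 of 552 values moved by less than the SD between spots, and the others moved by more or changed sign. The 239 include all 46 values with the first usable spot only and all 46 with the last. That outcome is fixed in advance for clones with 1 or 2 spots and shows no stability. Of the called genes 2 changed sign, AT5G27700 at 0.0477 and AT2G37130 at 0.0653, both with the zero on tubulin. Of the 8 genes not called, 7 changed sign under at least 1 setting: THI2.1, COR47, PYK10, BGLU22, AER, ALDH7B4 and EIN3. With median centring in place of loess, STZ, AT2G38240 and DRT100, each dim in 1 channel, moved to 1.72, 2.86 and -1.50, and with loess by print block to 0.54, 0.54 and -3.02; the cause was not tested. Signal over background limits what the unusable clones can show.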
